A study of Mus musculus with 6 samples.

Results

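NRF2 and glutathione genes were followed in L929 cells, a mouse fibroblast line, with a knockout of STING and in control L929 cells whose genotype label is WT. The set holds 38 genes, listed by symbol, and all 38 were found among the 27507 gene identifiers of the deposited table. A filter on low values left 35 of them among 12408 tested genes, and Gsta1, Gsta3 and Gstp1 lay below it. Each group had 3 samples of poly(A) RNA, and no treatment is named. STING is the endoplasmic reticulum adaptor of the DNA sensor cGAS. Whether the knockout is a single clone, and whether replicates are separate cultures, is not stated in the labels, so a p-value here reflects the variation among these libraries alone, part of which may be technical. In bulk RNA, fewer cells with a transcript and less of it per cell cannot be told apart.

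NRF2, the product of Nfe2l2, is a transcription factor that KEAP1 holds in the cytoplasm and marks for degradation. Electrophiles and oxidants modify KEAP1, NRF2 then reaches the nucleus, and with small MAF proteins it binds antioxidant response elements. Its known targets make glutathione, attach it to foreign compounds, recycle thioredoxin and peroxiredoxins, and supply the NADPH that these reactions use. Because NRF2 is held back mainly as a protein, the RNA level of Nfe2l2 is not a measure of its activity.

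The sample totals were 14382072 to 14526606 normalized counts, which are gene counts that the authors divided by a size factor of each sample. Sting1, listed under its older symbol Tmem173, averaged 85.4 ± 6.96 normalized counts in STING KO and 318 ± 10.1 in control (SD, n = 3 each). The 12 fibroblast markers summed to 203679 to 217604 in STING KO and 190142 to 202244 in control. STING KO replicate 1 and control replicate 3 stood apart: 16 hepatocyte markers summed to 5549 and 5922 normalized counts there, against 317 and 736 in the other STING KO libraries and 267 and 685 in the other control libraries. Alb, serum albumin, was at 2552 in STING KO replicate 1 and 2779.7 in control replicate 3. The matrix genes Dcn and Lum, counted here as fibroblast markers, went with these libraries, at 32.7 and 11.9 in STING KO replicate 1 and at 94.4 and 31.8 in control replicate 3, and at most 4.99 in the rest. The macrophage and leukocyte markers summed to 824 to 974 in STING KO and 772 to 908 in control. Most of that sum was Cd68, at 749 to 860 and 670 to 771. The epithelial and endothelial markers summed to 505 to 618 in STING KO and 447 to 524 in control, mostly Krt8, at 477 to 547 and 413 to 470. Lyz2 and Krt18 went with the libraries that stood apart. They were at 71.3 and 36.6 in STING KO replicate 1, 97.4 and 39.7 in control replicate 3, and at most 22.1 in the rest. None of the tested markers was called different. Tested were 10 of 12 fibroblast, 11 of 16 hepatocyte, 4 of 9 macrophage and leukocyte, and 2 of 7 epithelial and endothelial markers. Dcn, Lum and Krt18 were not among them.

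None of the 35 tested genes was called different between STING KO and control. A gene was called at a limma adjusted p, by Benjamini-Hochberg over all 12408 genes, of 0.05 or less. This threshold was passed by 0.258% of all tested genes, each of them lower in STING KO. The most distinct values were those of Gsta4, a glutathione transferase that conjugates lipid aldehydes, at 119.9% of control, and of Sod2, the mitochondrial superoxide dismutase, at 85.9% of control. Nfe2l2 itself was at 88.9% of control. For 33 of the 35 genes the 95% interval of the fold change lay within 1.5-fold in both directions, as it did for 85.4% of all tested genes.

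Sequence around antioxidant response elements was read from RefSeq promoter windows, which run from 250 bases before to 50 bases after a start of a gene. A gene can have more than 1 start, and 31 member genes had 40 windows. The matched window of Txnrd1 lies inside the gene, away from its outermost start. The letters TGACNNNGC, or GCNNNGTCA for the other strand, stood in the windows of 12 of the 31 member genes with a window, which is 38.7% of them. Among all 27025 genes with a window, 14.0% held these letters. No match was found for Nqo1, Hmox1, Gclc or Slc7a11, and sequence outside the windows was not searched. The stretches below are those of the 7 tested members with a match whose value in every library is given further on, and that of Me1, whose match overlaps another motif. Capitals mark the matched letters. All are written 5′ to 3′ along the gene's own strand, in build GRCm38.p6.
Nfe2l2 (chr2:75704880-75704913, minus strand): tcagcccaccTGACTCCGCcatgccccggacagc
Gclm (chr3:122245408-122245446, plus strand): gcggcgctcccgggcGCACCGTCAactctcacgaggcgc
Gstm5 (chr3:107895797-107895835, plus strand): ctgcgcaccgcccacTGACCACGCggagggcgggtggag
Srxn1 (chr2:152105537-152105573, plus strand): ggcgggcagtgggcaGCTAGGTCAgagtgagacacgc
Txnrd1 (chr10:82859099-82859137, plus strand): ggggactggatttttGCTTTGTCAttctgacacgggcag
Prdx1 (chr4:116685451-116685489, plus strand): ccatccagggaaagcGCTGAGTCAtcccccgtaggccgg
Sod1 (chr16:90220691-90220729, plus strand): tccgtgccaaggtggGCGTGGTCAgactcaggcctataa
Me1 (chr9:86695897-86695935, minus strand): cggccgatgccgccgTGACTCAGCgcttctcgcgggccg

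The matches differ in the 3 free letters. Those of Prdx1 and Me1 also spell TGACTCA or TGAGTCA, the sequence that AP-1 binds, and these were 2 of the 12 matches. Among tested members, 11 had a match and a median log2 fold change of 0.05, with a range from -0.17 to 0.25. The other 24 had a median of 0.06 and a range from -0.33 to 0.29. These 24 include tested members that had no window to search, so they are not all genes without a match. A match is a description of these letters and not evidence of binding.

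Levels of the 38 genes spanned more than 3 orders of magnitude when set per length, as normalized counts per kilobase of the longest protein-coding transcript. Sod1, the cytosolic superoxide dismutase, stood highest, at 7416 per kilobase in STING KO and 6537 in control, although 23.1% of the windows of 50 bases in its transcript also occur in Gm8566. Gsta4 came next at 4996 in STING KO and 4167 in control, followed by Ephx1, an epoxide hydrolase, at 3086 and 2850.0. The highest members of the other roles were Tkt at 2586 and 2484, Prdx1 at 2138 and 2016, Nfe2l2 at 1552 and 1746, and Gsr at 541 and 562. Nqo1, the quinone reductase often used as a readout of NRF2, was low among the members at 139 and 126 per kilobase. Slc7a11, which imports cystine, was at 34.5 and 41.3. Neighbours in this order were often closer than the groups of 1 gene: Gstm2 was at 3027 per kilobase in STING KO and 2857 in control, and Gpx1 at 3016 and 2786.

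**Figure D1:**
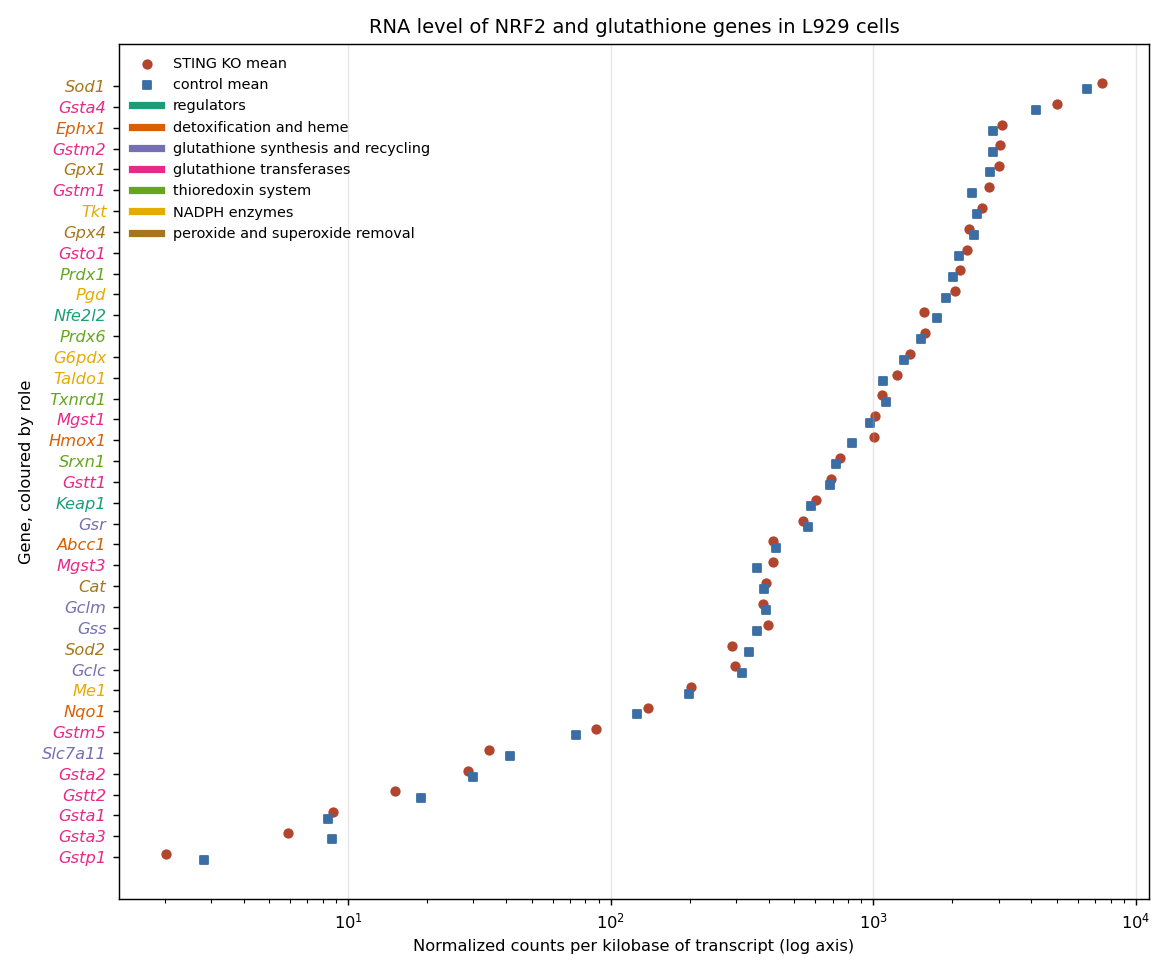
Mean level of each of the 38 genes in normalized counts per kilobase of transcript (log axis), for STING KO (circles) and control (squares, n = 3 each), ordered by level and with names coloured by role. Sod1 and Gsta4 lead, Gstp1 is last, and the 2 means of a gene nearly coincide for most genes.

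Of the regulators, Nfe2l2 (ENSMUSG00000015839, chromosome 2, 75675513 to 75704641 on the minus strand of GRCm38, protein coding) had 3799, 3992 and 3736 normalized counts in the STING KO libraries, against 4387, 4206 and 4370.2 in control. All STING KO libraries lay below all control libraries. The log2 fold change was -0.17 (SE 0.05, limma unadjusted p = 0.00526, adjusted p = 0.535), with a 95% interval from 0.826-fold to 0.957-fold. Keap1, the repressor, had overlapping groups at 2124, 2155 and 2254 in STING KO and 2086, 2201 and 1999.8 in control (log2 fold change 0.06, SE 0.05).

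Genes of detoxification and heme breakdown had overlapping groups. Hmox1, heme oxygenase 1, was at 1517, 1399.8 and 1822 normalized counts in STING KO and at 1071, 1467 and 1360.0 in control. Its lowest STING KO library lay below its highest control library, and its log2 fold change of 0.29 (SE 0.12, limma unadjusted p = 0.0463, adjusted p = 0.738) rested in part on single libraries. With STING KO replicate 3 left out it was 0.18, with control replicate 1 left out 0.15, and with control replicate 2 left out 0.38. Nqo1 was at 209, 204 and 233 in STING KO, against 173, 218 and 198 in control, a log2 fold change of 0.14 (SE 0.11). Ephx1 was at 5341, 4910.3 and 5869 in STING KO and 4714, 5377 and 4794 in control. Abcc1, which exports glutathione conjugates, averaged 2808 ± 122 and 2899 ± 131 (SD, n = 3 each).

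Genes of glutathione synthesis and recycling were mostly slightly lower in STING KO: 4 of 5 had a negative log2 fold change, and none was called by limma. Over all tested genes 49.2% were positive, and 26.4% of those over 4000 bases, the length of Slc7a11 and Gclm. Slc7a11 was at 321, 359 and 275 normalized counts in STING KO, against 414, 338 and 391 in control. STING KO replicate 2 lay above control replicate 2, so the groups overlapped, and the log2 fold change was -0.26 (SE 0.11, limma unadjusted p = 0.0417, adjusted p = 0.738). The glutamate-cysteine ligase, which makes the first step of glutathione, has a catalytic chain from Gclc and a modifier chain from Gclm. Gclc was at 1014, 1063 and 971 in STING KO and 1071, 1014 and 1147 in control, and Gclm at 2122, 2025 and 2220.3 in STING KO and 2095, 2196 and 2270.0 in control. Both had overlapping groups, with 95% intervals from 0.853-fold to 1.04-fold for Gclc and from 0.890-fold to 1.06-fold for Gclm. Gss, glutathione synthetase, averaged 782 ± 88.2 in STING KO and 707 ± 39.2 in control (SD, n = 3 each). Gsr, which reduces oxidised glutathione, was at 1464, 1402 and 1476 in STING KO, against 1477, 1485 and 1541 in control. Its groups did not overlap, but by a gap of less than 1 normalized count, and its log2 fold change was -0.05 (SE 0.05, limma unadjusted p = 0.324).

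Most glutathione transferases were on the higher side in STING KO: 8 of 10 tested had a positive log2 fold change, with a median of 0.09. Over all tested genes 49.2% were positive, but among those up to 1500 bases, the length of every tested transferase except Gstt2, 76.1% were. Gsta4 (ENSMUSG00000032348, chromosome 9, 78182774 to 78209349 on the plus strand, protein coding) had 4716, 4733 and 5194 normalized counts in STING KO and 4047, 4306 and 3859 in control. The lowest STING KO library stood above the highest control library. Its log2 fold change was 0.26 (SE 0.06, limma unadjusted p = 0.0014, adjusted p = 0.275). In the authors' deposited table Gsta4 has an adjusted p of 0.0414 and a log2 fold change of 0.26. It is the 1 member of the 37 with an adjusted p in the authors' deposited table that passes 0.05. Of all 13942 such genes 0.294% pass there, and 0.043% pass on the higher side. None of the windows of 50 bases in its transcript occurs in a transcript of another gene.

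Gstm1, a mu class transferase, was at 3469, 3269.6 and 3950.5 normalized counts in STING KO, against 2856, 3345 and 2942 in control. Control replicate 2 lay above STING KO replicate 2, and the log2 fold change was 0.22 (SE 0.08, limma unadjusted p = 0.0212, adjusted p = 0.738). For Gstm1, 23.1% of the windows of 50 bases are shared with Gstm2-ps1, Gstm3 and other genes, so part of its reads may be theirs. Mgst3, a membrane-bound transferase and peroxidase, was at 468, 420.1 and 476 in STING KO and 367, 420.0 and 398 in control. These groups did not overlap, by a margin far under 1 normalized count (log2 fold change 0.20, SE 0.08, limma unadjusted p = 0.0299). The smaller Gstm5 was at 85.1, 75.7 and 88.4 in STING KO, against 63.9, 72.8 and 72.5 in control, again without overlap (log2 fold change 0.25, SE 0.12, limma unadjusted p = 0.0733).

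Gstt2 was on the lower side, at 36.6, 28.9 and 36.2 normalized counts in STING KO and 36.9, 45.9 and 44.7 in control. Its groups were separated by less than 1 normalized count (log2 fold change -0.33, SE 0.18, limma unadjusted p = 0.0992), and its 95% interval reached beyond 1.5-fold. Gstm2, Gsto1, Gstt1 and Mgst1 overlapped between the groups, at 106%, 107%, 101% and 104% of control. As a sum of normalized counts over all 13 transferases, STING KO libraries held 16597, 16049 and 18076, against 14512, 16283 and 14535 in control libraries. STING KO replicate 2 lay below control replicate 2 in this sum, so the groups overlapped.

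The transferases Gsta1, Gsta2, Gsta3 and Gstp1 were low, and the reads of all but Gsta3 are hard to assign. Gsta1 was at 6.93, 7.96 and 8.03 normalized counts in STING KO and 6.99, 4.99 and 9.93 in control, and Gsta2 averaged 24.9 ± 6.69 and 25.9 ± 5.33 (SD, n = 3 each). These alpha class genes share sequence: 89.7% of the windows of 50 bases in Gsta1 and 64.2% of those in Gsta2 occur in transcripts of other genes, Gm3776 and each other among them. Gsta3, an alpha class gene of liver, was highest in the libraries that stood apart, at 17.8 in STING KO replicate 1 and 32.8 in control replicate 3, against 7.0 and 1.0 in the other STING KO libraries and 3.0 and 2.0 in the other control libraries. Gstp1, the pi class transferase, was at 1.0 to 2.0 in STING KO and 2.0 to 3.0 in control. Of its windows 62.3% are shared with Gstp2 and Gstp-ps, and Gstp2 is listed at 0 in all 6 libraries.

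**Figure D2:**
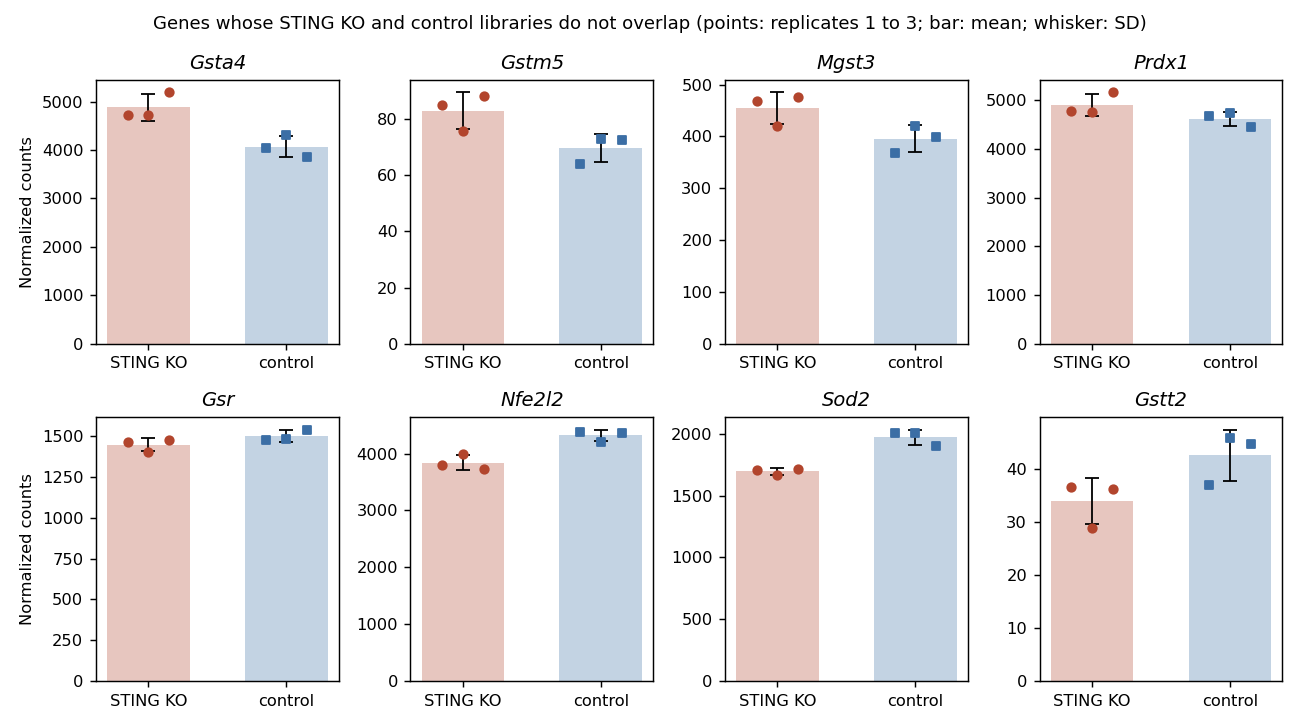
Normalized counts of the 8 genes whose STING KO and control libraries do not overlap: points are replicates 1 to 3, bars the mean and whiskers the SD (n = 3 each). Gsta4, Gstm5, Mgst3 and Prdx1 are higher in STING KO and Gsr, Nfe2l2, Sod2 and Gstt2 lower, with a wide gap in Gsta4, Nfe2l2 and Sod2 and almost none in Mgst3, Gsr and Gstt2.

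The thioredoxin system had small differences. Txnrd1, thioredoxin reductase 1, was at 4002, 3832 and 3924 normalized counts in STING KO and at 3956, 4036 and 4166 in control, and the groups overlapped (log2 fold change -0.05, SE 0.05). Srxn1, which repairs over-oxidised peroxiredoxins, was at 2079, 2042 and 2185 in STING KO, against 1996, 2061 and 2034 in control. Its STING KO replicate 2 lay between control libraries. Prdx1, an abundant peroxiredoxin, was at 4783, 4761 and 5167 in STING KO and at 4677, 4734 and 4463 in control. All STING KO libraries lay above all control libraries, by a log2 fold change of 0.08 (SE 0.05, limma unadjusted p = 0.13), and 10.9% of its windows of 50 bases also occur in 3 other genes. Prdx6, which reduces phospholipid peroxides with glutathione, averaged 3756 ± 268 and 3614 ± 165 (SD, n = 3 each).

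All 5 genes grouped here as NADPH enzymes had a positive log2 fold change, none with separate groups and none called by limma. Over all tested genes 49.2% were positive. By length it was 55.8% from 1500 to 4000 bases, where all but Taldo1 lie, and 76.1% up to 1500 bases. Tkt, transketolase of the pentose phosphate pathway, was at 8200.1, 7953 and 8848 normalized counts in STING KO and at 8026, 8449 and 7539 in control. Its groups overlapped widely (log2 fold change 0.06, SE 0.06). Glucose-6-phosphate dehydrogenase from G6pdx was at 106% of control, Pgd, the next NADPH-forming step, at 108%, Taldo1, transaldolase, at 113% and Me1, the cytosolic malic enzyme, at 102%. The log2 fold changes ran from 0.03 for Me1 to 0.17 for Taldo1. Related genes outside the set lay on both sides, as given further on. For Me1, 26.5% of the windows of 50 bases are shared with Gm7049 and Gm7329.

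Among genes that remove peroxide and superoxide, the mitochondrial and cytosolic superoxide dismutases lay on opposite sides. Sod2 (ENSMUSG00000006818, chromosome 17, 13006846 to 13040063 on the plus strand, protein coding), known also as a target of NF-kB, was at 1705, 1667 and 1715 normalized counts in STING KO, against 2008, 2009 and 1902 in control. The gap between the groups was larger than the spread within either, and the log2 fold change was -0.22 (SE 0.05, limma unadjusted p = 0.00142, adjusted p = 0.275). The authors' deposited table gives Sod2 an adjusted p of 0.264. Sod1 was at 4542, 4462 and 5257 in STING KO and 4058, 4559 and 3954 in control. Control replicate 2 exceeded STING KO replicates 1 and 2, so the groups overlapped, and the log2 fold change was 0.18 (SE 0.08, limma unadjusted p = 0.0396, adjusted p = 0.738).

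Catalase and the glutathione peroxidases overlapped between the groups. Cat averaged 1019.9 ± 35.9 normalized counts in STING KO and 1002 ± 50.8 in control (SD, n = 3 each), with a 95% interval from 0.928-fold to 1.12-fold. Gpx1, the cytosolic glutathione peroxidase, averaged 3233 ± 371 and 2986 ± 234. Gpx4, which reduces lipid peroxides and guards against ferroptosis, averaged 2307 ± 320.4 and 2401 ± 166 (SD, n = 3 each). Its value is uncertain, since 61.7% of its windows of 50 bases also occur in Gpx4-ps2 and AC122253.3.

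**Figure D3:**
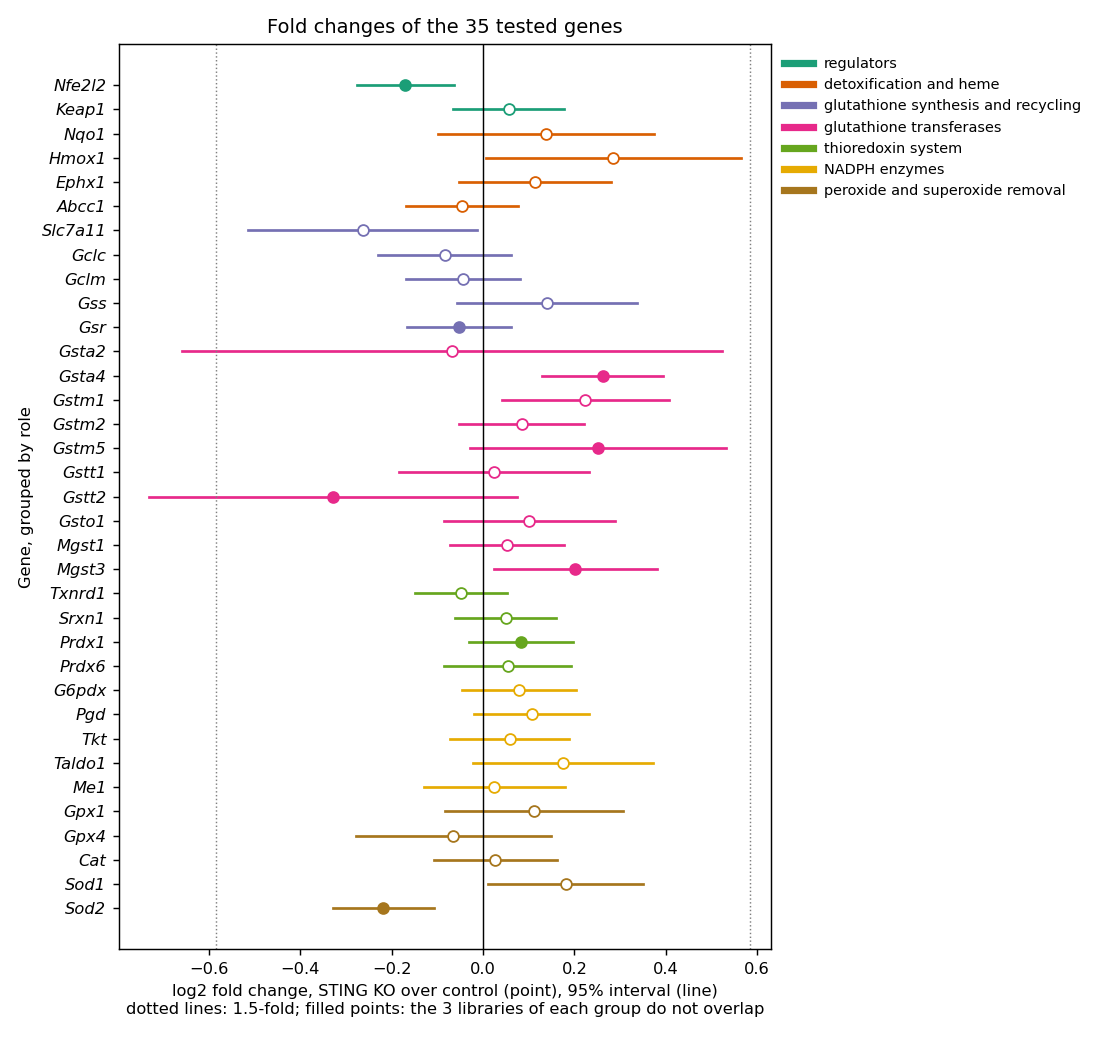
Fold change (log2, STING KO over control) and 95% interval from limma for the 35 tested genes, grouped by role; filled points mark genes whose libraries do not overlap between groups, and dotted lines mark 1.5-fold. All intervals but those of Gsta2 and Gstt2 lie within 1.5-fold.

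Over the 35 tested genes, 0 were called by limma and 0 by limma-voom, while 8 had an unadjusted p of 0.05 or less in limma. These were Gsta4, Gstm1, Hmox1, Sod1 and Mgst3, higher in STING KO, and Sod2, Nfe2l2 and Slc7a11, lower. With STING KO replicate 3 left out, the log2 fold changes of Gstm1, Sod1 and Slc7a11 were 0.15, 0.11 and -0.16. Other settings gave larger values, up to 0.29 for Gstm1, 0.24 for Sod1 and -0.355 for Slc7a11. Over all tested genes, 6.37% had such a p, 3.2% on the higher and 3.18% on the lower side. Groups did not overlap for 8 of the 35 genes, 4 higher and 4 lower, against 12.1% of all tested genes, 5.76% higher and 6.32% lower. Leaving out a library can only keep or raise this count. It was 16 without STING KO replicate 2 and 23 without control replicate 2, when 26.7% and 37.0% of all tested genes were also separate. The median log2 fold change was 0.06, and 24 of 35 genes were positive, against 49.2% of all tested genes. Since members were chosen with earlier results of these data known, these counts are descriptions.

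The members varied together within each group. STING KO replicate 3 held the highest STING KO value for 26 of the 35 genes, and control replicate 2 the highest control value for 25. Over all tested genes these libraries were highest in their group for 39.9% and 40.1%. Relative to each gene's control mean, the median log2 level of the 35 genes was 0.04, 0.01 and 0.15 in STING KO replicates 1, 2 and 3, against -0.03, 0.08 and -0.05 in control replicates 1, 2 and 3. STING KO replicate 2 thus lay below control replicate 2, and the medians of the groups overlapped. The medians of the glutathione transferases ran from 0.04 to 0.25 in STING KO and from -0.08 to 0.11 in control, and those of detoxification and heme genes from 0.04 to 0.25 in STING KO and from -0.12 to 0.14 in control. The genes of glutathione synthesis and recycling had a narrower range, from -0.08 to -0.02 in STING KO, with replicate 3 again highest, and from -0.01 to 0.04 in control, where replicate 3 and not replicate 2 was highest.

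**Figure D4:**
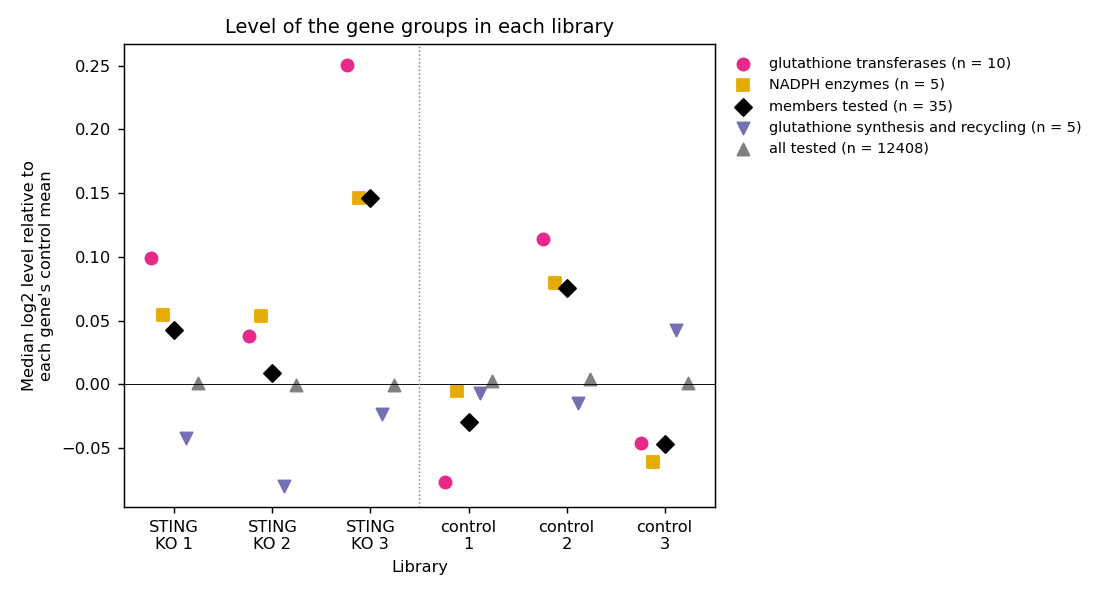
Median log2 level relative to each gene's control mean, in each STING KO and control library, for the 35 tested members, 3 of their roles and all 12408 tested genes. STING KO replicate 3 and control replicate 2 are highest in their group for members, transferases and NADPH enzymes, while the median of all tested genes stays near 0.

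Transcript length moved with these differences. Among all tested genes, those up to 1500 bases had a median log2 fold change of 0.08 and those over 4000 bases one of -0.06. Short genes were also higher in STING KO replicate 3 than in the other STING KO libraries, by a median of 0.15, and in control replicate 2 than in the other control libraries, by 0.13. The 35 members were shorter than most, with a median of 2218 bases against 3038 over all tested genes. Of 13 members up to 1500 bases 11 were positive, with a median of 0.11, against 76.1% of all tested genes of that length. Of the 18 between 1500 and 4000 bases 13 were positive, with a median of 0.06, against 55.8% and a median of 0.01 for all tested genes of that length. All 4 members over 4000 bases (Slc7a11, Sod2, Abcc1 and Gclm) were negative, where 26.4% of all tested genes of that length were positive. With the length trend of each library removed before the fit, 0 members were called, and the log2 fold changes were 0.20 for Gsta4 (limma adjusted p = 0.0943), -0.16 for Sod2 (0.65) and -0.19 for Nfe2l2 (0.223). Those of Abcc1, Gclm, Gstt1 and Mgst1 changed sign, to 0.03, 0.02, -0.04 and -0.01.

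**Figure D5:**
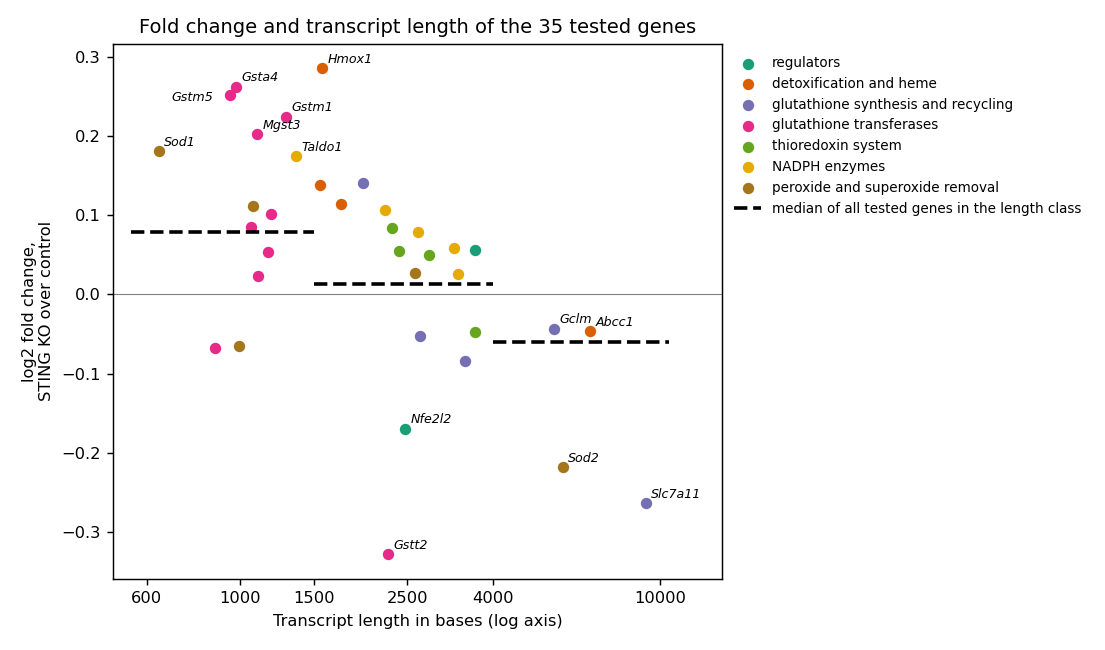
Fold change (log2, STING KO over control) against transcript length (log axis) for the 35 tested genes, coloured by role, with dashed lines at the median of all tested genes up to 1500, up to 4000 and over 4000 bases. Short members such as Gsta4 and Sod1 are positive, and the members over 4000 bases negative.

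Further genes of the pathway, from a list of 73 that holds NRF2 partners, thioredoxin and peroxiredoxin genes, other transferases and NADPH enzymes, likewise gave 0 calls. The table has 74 rows for them, of which 67 were tested. None was called by limma in either direction, and 1 of the 69 with an adjusted p passed in the authors' deposited table. In limma 9 had an unadjusted p of 0.05 or less, 4 higher and 5 lower in STING KO. That is 13.4% against 6.37% of all tested genes. Groups did not overlap for 11, or 16.4%, against 12.1% of all tested genes. Of the 67, 42 were positive, or 62.7% against 49.2% of all tested genes, with a median of 0.05 on the log2 scale. These shares do not take transcript length into account. Txnip, which binds and inhibits thioredoxin, was at 2129.9, 2132 and 2057 normalized counts in STING KO and 1764, 1764 and 1768 in control, without overlap (log2 fold change 0.25, SE 0.05, limma adjusted p = 0.102). The authors' deposited table gives Txnip an adjusted p of 0.0268.

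The next genes were named after their values were seen. Nfe2l1, which encodes the NRF2 relative NRF1, was at 4611, 4546 and 4546 normalized counts in STING KO, against 5148, 5104 and 5226 in control, with no overlap (log2 fold change -0.18, SE 0.04, limma adjusted p = 0.340). The small transferase genes Gstm7, Mgst2 and Gsto2 were at 124%, 119.8% and 129% of control, each without overlap and none called. On the lower side, Abcc4, H6pd and Bach2 were at 84.7%, 91.2% and 61.4% of control, also without overlap and not called. Bach2 was low, at 7.0 to 16.9 normalized counts. Of other NADPH and pentose phosphate genes, Idh1, Nadk and Rpia were at 95.4%, 96.1% and 96.1% of control. Pgls, Rpe and Idh2 were at 109.6%, 102% and 100.8%, and these groups overlapped. Other transferases of the list overlapped between the groups: Gstcd was at 86.7% of control (limma unadjusted p = 0.0341), Gstt3 at 98.1%, Gstk1 at 100.5%, Gstz1 at 106%, and Gstm4 and Gstm6 at 110.0% and 110.1%. Gstm3, a mu class gene, was highest in the same libraries as Gsta3, at 42.6 in STING KO replicate 1 and 86.4 in control replicate 3, against 36.8 and 13.1 in the other STING KO libraries and 19.0 and 13.0 in the other control libraries. The part of hepatocyte transcripts in Gsta3 and Gstm3 was not tested. Without both libraries that stood apart, limma called 0 members, and the log2 fold changes were 0.25 for Gsta4, -0.25 for Sod2 and -0.15 for Nfe2l2.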

How the data were processed

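RNA-seq of L929 cells was deposited as 1 table of genes for 3 STING KO and 3 control samples, grouped by title. The deposited sample columns hold a signal named normalized counts here, that is, gene counts over a size factor. The values show it: each column has its own step, 0.990 to 1.004, and 100% of its non-zero values are whole multiples of that step (tolerance 0.01). Per the file headers, the authors' deposited comparison gives log2 fold changes, a Wald score and p-values. Per the submitters' processing notes, which give no roles, DESeq2 1.4.5, RSEM 1.2.12, Bowtie2 2.2.5 and HISAT2 2.0.4 were used with GRCm38 or mm10. Overlapping genes may share reads, as no source used here gives the strand setting.

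Of 27821 rows, 314 repeated an identifier, and the first row of each was kept. R 4.3.3 with limma 3.58.1 (trended variance) fitted log2(value + 0.1) for genes at 10 or more in at least 3 samples. Fold changes are on that scale, which understates low genes. The fit was tested on simulated data. Lengths and coordinates came from GENCODE M21 (GRCm38), with the longest protein-coding transcript of the basic set. Shared windows of 50 bases were counted against all its transcripts. Members, lists and tests were chosen with earlier results of these data known. Values in every sample are given for the regulators, Nqo1, Hmox1, Gclc, Gclm, Slc7a11, Txnrd1, Srxn1, members with an unadjusted p of 0.05 or less or called by the authors, members whose groups do not overlap, and the highest member per kilobase of each role. Alternatives were other scalings, filters, pseudocounts and tests, a replicate block and leaving out libraries; the length correction was chosen after seeing the data.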

Additional observations from a re-analysis of the deposited data

How the results depend on the processing

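In 16 other settings no member was called, with the exception of Gsta4 in the authors' deposited comparison (adjusted p = 0.0414), where 1 member and 6 genes in all were higher. Of 558 member values, 543 kept their sign and their side of the threshold. The log2 fold changes that changed sign when 1 library was left out ranged from -0.27 to 0.11 for Gsta2, from -0.16 to 0.038 for Gpx4, from -0.045 to 0.13 for Gstt1, from -0.014 to 0.075 for Me1 and from -0.011 to 0.062 for Cat. Gstt1 was also negative without both libraries with hepatocyte transcripts (-0.027). With the length trend removed, the sign changed for Abcc1 (0.027), Gclm (0.015), Gstt1 (-0.037) and Mgst1 (-0.0064). Over all genes limma called 32, all lower, against 18 with the replicate block and 13 without both libraries with hepatocyte transcripts. Leaving out 1 library gave 21 to 35 calls, the fewest without control replicate 1, and 0 to 2 on the higher side; the length correction gave 5 higher. The count of 8 members with separate groups ran from 8 to 23 with 1 library left out, which can only keep or raise it. It was 6 with upper-quartile scaling and 7 with trimmed-mean (TMM) scaling. The causes were not tested.

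Replicate numbers gave no pairing: libraries with the same number had deviations that correlated at -0.183, -0.180 and -0.488. No sample correlated best with its own number. Deviations were shared across other numbers: STING KO replicate 1 with control replicate 3 (0.448) and STING KO replicate 3 with control replicate 2 (0.459). STING KO replicate 2 correlated best with control replicate 1 (0.183). The labels do not state such a matching, and a fit that uses it was not run. The edgeR test on recovered reads, listed as an alternative, was not run. Gsta1, Gsta3 and Gstp1 were under the minimum and were not tested, and 3 samples a group limit the rest.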
